A study of Mus musculus with 4 samples.

Results

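The E proteins Tcf3, Tcf12 and Tcf4 and their inhibitors Id1, Id2 and Id3 were followed across single thymocytes of wild type and Tal1/Lmo2 transgenic mice. These are 6 of the 31053 genes counted, chosen by name as the 3 E protein genes and the 3 Id genes. Earlier results of these data were known when they were chosen. Transcripts were counted by droplet-based 3′ sequencing of sorted viable (7-AAD-negative) cells of the thymus of 4 FVB/N mice, each giving 1 library. The WT library came from a 6-week-old wild type thymus and the preleukemic library from a 6-week-old Tal1/Lmo2 thymus. The leukemic group, T-ALL#1 and T-ALL#2, comprised the thymi of 3-month-old Tal1/Lmo2 mice that had developed T-ALL, a T-cell acute lymphoblastic leukemia. In this line both transgenes, Tal1 and Lmo2, are driven by the proximal Lck promoter, which is active in T-lineage cells, and every transgenic library carries both. Each condition other than T-ALL is 1 animal, so condition, animal, age and library cannot be told apart, and no test was made between libraries.

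E proteins are basic helix-loop-helix transcription factors. Tcf3 encodes E12 and E47, Tcf12 encodes HEB and Tcf4 encodes E2-2, and they bind E-box DNA (CANNTG) as dimers with each other or with other factors of the family. Id proteins have the helix-loop-helix but no basic region, so a dimer of an Id protein and an E protein does not bind DNA. In thymocytes, E proteins drive antigen receptor rearrangement and hold cells at the checkpoints of receptor signaling, Id3 is induced by signals of the pre-T-cell receptor and the T-cell receptor, and Id2 marks innate-like lymphocytes. TAL1 also dimerizes with E proteins.

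Positions are those of GENCODE M21 on GRCm38, which lists all 6 genes by the identifiers of the count tables. Tcf3 (ENSMUSG00000020167) lies on chromosome 10 from 80409514 to 80433647 on the minus strand. Tcf12 (ENSMUSG00000032228) lies on chromosome 9 from 71842688 to 72111871 on the minus strand, and Tcf4 is ENSMUSG00000053477. The Id genes are far shorter. Id1 (ENSMUSG00000042745) lies on chromosome 2 from 152736251 to 152737410 and Id3 (ENSMUSG00000007872) on chromosome 4 from 136143497 to 136145755, both on the plus strand. Id2 (ENSMUSG00000020644) lies on chromosome 12 from 25093799 to 25097140 on the minus strand.

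E-boxes, the letters to which E proteins bind, were looked for in promoter windows of 300 bases, from 250 before to 50 after an annotated start (RefSeq, GRCm38.p6). The table held windows for 4 of the 6 genes, namely Tcf3, Tcf12, Id2 and Id3. CANNTG reads the same on both strands, and 72.3% of all 32851 windows hold it, while 16.3% hold CAGCTG. Stretches of Id2, Tcf3 and Tcf12 windows with an E-box, not all of them, are shown because they hold the letters that the encoded factors recognize, with the E-box in capitals and the strand of the gene written 5′ to 3′.
Id2, chr12:25096271-25096300: aatttgccacccCAGCTGggctctcgcccg
Tcf3, chr10:80433672-80433701: agtgggcgtggtCACTTGggggcgtggctt
Tcf12, chr9:72112040-72112069: agatgctgccCAGCTGcgtccccgtcgcgg
Tcf12, chr9:71896084-71896113: tttgagtagttcCATGTGtgaatgcatagt
In these windows the E-box of Id2 begins 196 bases before the start and that of Tcf3 begins 54 bases before it. The window of Id3 at 136143572 to 136143871 held no CANNTG. Neither binding nor chromatin was measured in these samples, so the matches are a description of the letters.

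From WT 4220 cells were kept, from the preleukemic library 5576, from T-ALL#1 5773 and from T-ALL#2 1975, with 24042062, 40851235, 70745712 and 36236569 unique molecular identifiers (UMIs, 1 per captured transcript). Median depth per cell differed from 3800 UMIs in WT to 17581 in T-ALL#2, so levels are given as CPM, the counts of a gene scaled to the same total of UMIs in each library (counts-per-million), with exact Poisson 95% intervals, and shares and within-library differences were also read after thinning each cell to 2000 UMIs, with cells under 2000 left out and classes set again on the thinned UMIs. Libraries shared from 0 to 9 cell barcodes in pairs. Tal1 had 0 UMIs in WT and stood at 409.6, 68.3 and 234 CPM in the preleukemic library, T-ALL#1 and T-ALL#2, while Lmo2 was at 0.915, 4.48, 0.368 and 0.276 CPM. Tal1 thus followed the genotype labels, while Lmo2 in the leukemias was not above WT. The WT and preleukemic libraries are labelled male but held Xist at 1380.2 and 1869 CPM with 1 and 5 UMIs of 4 Y-linked genes, which goes against that label. T-ALL#1, labelled female, held Xist at 1932 CPM with 1 such UMI, and T-ALL#2, labelled male, had 0.0828 CPM and 4413 UMIs, so the leukemias differ from each other in these genes and the younger thymi resemble T-ALL#1. The 8 thymocyte markers were all detected and summed to between 3529 and 6782 CPM, and 57, 52, 32 and 17 cells held 2 or more UMIs of a narrow list of B-cell, plasmacytoid and myeloid genes. Other lineage lists differed between WT and the preleukemic library. The 5 gamma-delta T-cell genes summed to 283 CPM in WT, 1887 in preleukemic cells, 114 in T-ALL#1 and 251 in T-ALL#2. Trdc, the constant region of the delta chain, was in 14.8%, 81.8%, 0.416% and 69.1% of cells. The paper found no increase in gamma-delta thymocytes by surface staining of the preleukemic thymus. It proposes that these transcripts come from germline transcription in preleukemic progenitors. The 6 myeloid genes summed to 237 CPM in WT and 4.82 before leukemia, and the 3 erythroid genes to 82.6 and 0.147 CPM.

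Between libraries the Id genes differed far more than the E protein genes. Id2 and Id3 stood low in the preleukemic library and Id1 was high in both leukemias and low elsewhere. Tcf12, which had the most UMIs of the 6 in every library, stayed within 1.70-fold of WT, although with TMM factors it stood 1.07 above WT on the log2 scale in both leukemias. A gene was called different when the CPM ratio was at least 2 and the counting intervals did not overlap, among genes with at least 10 CPM in either library.

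Tcf12 led the E proteins in every library. WT stood at 285 CPM (95% interval 278 to 292), the preleukemic library at 408 (402 to 414), T-ALL#1 at 483 (478 to 488) and T-ALL#2 at 406 (399.9 to 413). The 3 transgenic levels were above WT beyond counting error, and those of the preleukemic library and T-ALL#2 did not differ beyond it (ratio 0.997, interval 0.975 to 1.02), while TMM factors put T-ALL#2 higher by 0.50 on the log2 scale. Of all E protein UMIs, Tcf12 made up 66.3%, 70.1%, 76.3% and 75.5% in the order of WT, preleukemic, T-ALL#1 and T-ALL#2. A UMI counts 1 transcript whatever its length, so these shares are not divided by length.

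Tcf3, whose products pair with HEB in thymocytes, ran a different course. WT had 101 CPM of it (97.0 to 105), preleukemic cells 138 (134 to 142), T-ALL#1 98.1 (95.8 to 100.4) and T-ALL#2 66.1 (63.5 to 68.8). WT and T-ALL#1 did not differ beyond counting error, the preleukemic library was the highest and T-ALL#2 the lowest, but with TMM factors T-ALL#2 stood at -0.06 against WT and T-ALL#1 at 0.27 on the log2 scale. Tcf3 was 2.09-fold lower in T-ALL#2 than in the preleukemic library, but the median of all genes passing the minimum was also lower there by 0.48 on the log2 scale, and with TMM factors the difference in Tcf3 shrank from -1.06 to -0.56, which is under the limit for a call. Tcf4, the least abundant E protein gene of the first 3 libraries, had 43.5 CPM in WT (41.0 to 46.3) and 36.4 in preleukemic cells (34.5 to 38.3), against 51.8 in T-ALL#1 (50.1 to 53.5) and 66.0 in T-ALL#2 (63.4 to 68.7), where it equalled Tcf3 within counting error. It was 1.42-fold and 1.82-fold higher in the leukemias than in the preleukemic library, below the limit for a call, which T-ALL#2 passed with TMM factors (1.36 on the log2 scale).

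Id3, the most abundant Id gene of WT, showed the widest gap between WT and preleukemic cells. Its 252 CPM in WT (245 to 258) compared with 19.1 in preleukemic cells (17.8 to 20.5), and the leukemias held 75.5 (T-ALL#1, 73.5 to 77.6) and 144 (T-ALL#2, 139.7 to 148). The preleukemic level was 13.1-fold lower than that of WT, and the 2 leukemias stood between them. A UMI of Id3 was found in 40.2% of WT cells and 4.77% of preleukemic cells, and after thinning in 27.6% and 1.89%. The gamma-delta, myeloid and erythroid sums given above differ between the same 2 libraries, and their part in the Id levels was not tested.

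Id2 had 117 CPM in WT (112 to 121) and 20.1 in preleukemic cells (18.8 to 21.6). T-ALL#1 held 90.8 CPM of it (88.6 to 93.0) and T-ALL#2 45.4 (43.2 to 47.6). The preleukemic library was again the lowest, 5.79-fold under WT. The order of the leukemias was opposite to that of Id3, with T-ALL#1 above T-ALL#2. The thinned shares of cells with an Id2 UMI were 14.8% for WT, 2.41% for preleukemic cells, 19.5% for T-ALL#1 and 10.4% for T-ALL#2.

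Id1, a target of bone morphogenetic protein signals in many tissues, was nearly absent from the younger thymi. WT had 52 UMIs of it (2.16 CPM, 1.62 to 2.84) and the preleukemic library 81 (1.98 CPM, 1.57 to 2.46), which did not differ beyond counting error. T-ALL#1 stood at 26.4 CPM (25.2 to 27.6) and T-ALL#2 at 74.1 CPM (71.3 to 76.9), 13.3-fold (10.6 to 16.8) and 37.4-fold (29.9 to 47.2) above the preleukemic library. Thinned shares of cells with Id1 were 0.403%, 0.536%, 4.90% and 10.1% from WT to T-ALL#2, against 1.07%, 1.40%, 17.7% and 33.6% before thinning.

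**Figure D1:**
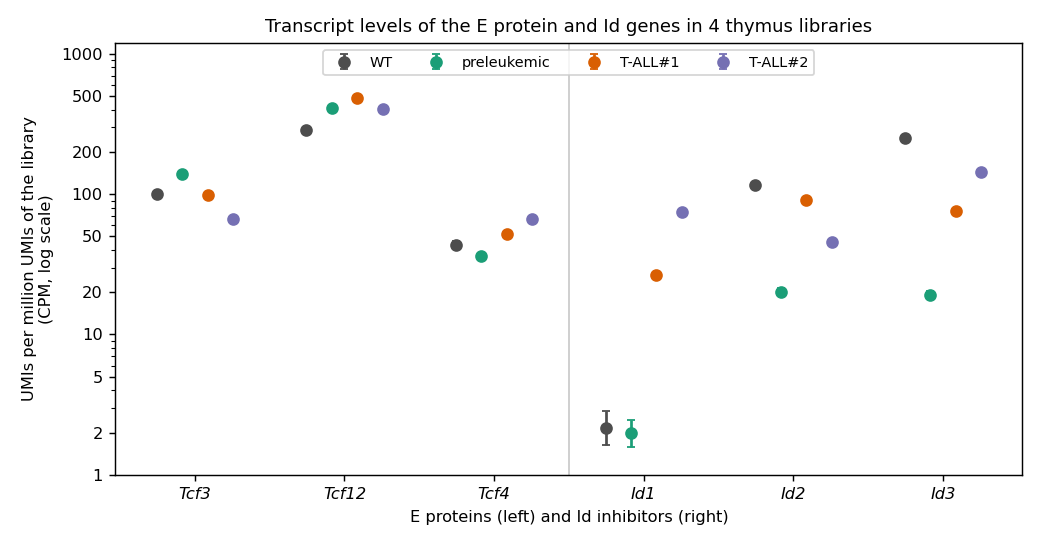
Level of each gene in CPM (log scale) in the 4 libraries, with exact Poisson 95% intervals that are mostly smaller than the points. The 3 E protein genes lie within narrow bands, Id2 and Id3 dip in the preleukemic library to 20.1 and 19.1 CPM, and Id1 rises from about 2 CPM to 26.4 and 74.1 CPM in the leukemias.

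Of the 5 members that passed the minimum of 10 CPM in the preleukemic or WT library, Id2 and Id3 were called lower in the preleukemic library, against 4.88% of the 8417 genes that passed, and 0 members were called higher, against 4.46%. In T-ALL#1 against the preleukemic library, Id1, Id2 and Id3 were called higher, against 4.68% of genes, and no E protein gene was called in either direction (11.8% of genes were lower). The planned list of other lineages marked 4844 of 5576 preleukemic and 3874 of 5773 T-ALL#1 cells. Without these cells Id3 stood at 0.69 on the log2 scale instead of 1.98 and was no longer called. In T-ALL#2 the same 3 Id genes were called higher, against 3.96%, and Tcf3 lower, against 27.1%. Id1 passed the minimum only through the leukemias, so its call is given as a level and not as support. Both leukemic comparisons share the preleukemic library. Against WT, Id1 was higher in both leukemias, where 4.72% and 5.20% of genes were called higher. Id3 was lower in T-ALL#1, where 12.9% of genes were called lower, and Id2 was lower in T-ALL#2, where 30.3% were. By TMM factors, which scale on genes of moderate change, an unchanged gene lay at -0.26 (T-ALL#1) and -0.50 (T-ALL#2) on the log2 scale against the preleukemic library, and at -0.31 and -0.55 against WT. Relative to these, Id2 in T-ALL#2 stood at -0.81 against WT, short of a call.

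Free RNA was read in T-ALL#2, whose deposited matrix also holds barcodes without cells. In barcodes of at most 100 UMIs, the Id genes were at or above the level of the cells, with Id1 at 74.4 CPM (62.4 to 88.1) against 74.1 in cells, Id2 at 44.1 (35.0 to 54.9) against 45.4 and Id3 at 168 (149.8 to 188) against 144. Tcf12 was higher in cells, at 406 CPM against 262 in empty barcodes. A share of T-ALL#2 cells with 1 UMI of an Id gene thus includes free RNA, and its part in that share was not tested. The genes used to split cells were in the empty barcodes too, with Tal1 at 567 CPM (533 to 602) against 234 in cells, Cd4 at 10.5 against 13.8 and Cd8a at 89.3 against 117. Tal1 was thus more concentrated outside cells than in them, and a Tal1, Cd4 or Cd8a UMI in a T-ALL#2 cell can be free RNA. Empty barcodes of the other libraries were not analysed here.

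Summed over each family, the counts fell from nearly 1 Id UMI per E protein UMI in WT to a small fraction of that before leukemia. WT had 0.863 Id UMIs per E protein UMI (0.839 to 0.888) and preleukemic cells 0.0709 (0.0675 to 0.0745). T-ALL#1 had 0.304 (0.299 to 0.310) and T-ALL#2 0.488 (0.477 to 0.500). The ratio does not depend on library scaling. The makeup of the Id sum changed too, Id1 being 0.584%, 4.80%, 13.7% and 28.2% of Id UMIs from WT to T-ALL#2.

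Cells were split by detected coreceptor transcripts. The classes were cells with none, with Cd8a or Cd8b1 alone (Cd8 only), with both Cd4 and Cd8, and with Cd4 alone (Cd4 only). A transcript can be missed in a shallow cell, so a class can mix stages and its order is not a measured course. WT had 325 cells with none in all UMIs and 751 after thinning. In WT the genes differed in opposite ways between these classes. Tcf12 was at 172 CPM in cells with none (154 to 191), 207 in Cd8 only cells (195 to 220.0), 400.0 in cells with both (389 to 411) and 113 in Cd4 only cells (103 to 123). It was highest in cells with both and lowest in Cd4 only cells. Tcf3 had the same order in smaller steps, at 91.1, 97.9, 117 and 66.1 CPM, and Tcf4 peaked in cells with both at 55.2 CPM and fell to 22.2 CPM in Cd4 only cells.

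Id2 in WT ran the other way. It was at 198 CPM in cells with none (179 to 218), 101 in Cd8 only cells (93.1 to 110.4), 61.9 in cells with both (57.6 to 66.5) and 248 in Cd4 only cells (233 to 263). Id3 was at 321, 222, 207 and 378 CPM in the same order. Both Id genes were thus lowest in cells with both coreceptors and highest in Cd4 only cells. Id UMIs per E protein UMI were accordingly 1.73 in WT cells with none, 0.951 in Cd8 only cells, 0.474 in cells with both and 3.11 in Cd4 only cells.

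The low Id level of the preleukemic library was present in each coreceptor class. Id3 was 16.1-fold lower than in WT in cells with none (19.9 against 321 CPM), 13.7-fold in Cd8 only cells, 11.2-fold in cells with both and 2.17-fold in Cd4 only cells, a class of 28 preleukemic cells. Id2 was lower by 7.64-fold, 7.43-fold, 4.35-fold and 3.59-fold in the same classes. The mix of classes also differed, since 3328 of 5576 preleukemic cells had no coreceptor transcript against 325 of 4220 WT cells. Kinds of cell within a class can differ too. Id UMIs per E protein UMI were 1.73 in WT cells with none and 0.255 in the WT DN3 gate described below. The part of such make-up in these differences was not tested. Tcf12 was higher than in WT in each class, by 2.24-fold in cells with none, 2.04-fold in Cd8 only cells, 1.27-fold in cells with both and 2.26-fold in Cd4 only cells. Tcf12 at 386 CPM in preleukemic cells with none was close to the level of WT cells with both.

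In both leukemias Tcf12 was again highest in cells with both coreceptors. In T-ALL#1 it was at 384 CPM in cells with none, 449 in Cd8 only cells, 569.8 in cells with both and 397 in Cd4 only cells. In T-ALL#2 it was at 362, 403, 493 and 372 CPM. Id1 in T-ALL#1 ran from 13.0 CPM in cells with none to 34.4 in cells with both. Id3 in T-ALL#2 ran from 126 CPM in Cd8 only cells to 295 in Cd4 only cells, a class of 47 cells. Id UMIs per E protein UMI lay between 0.290 and 0.356 over the 4 classes of T-ALL#1 and between 0.438 and 0.953 over those of T-ALL#2, against 0.474 to 3.11 in WT. The 0.953 was that of the same 47 cells, whose class rests on Cd4, also present in empty barcodes as given above.

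**Figure D2:**
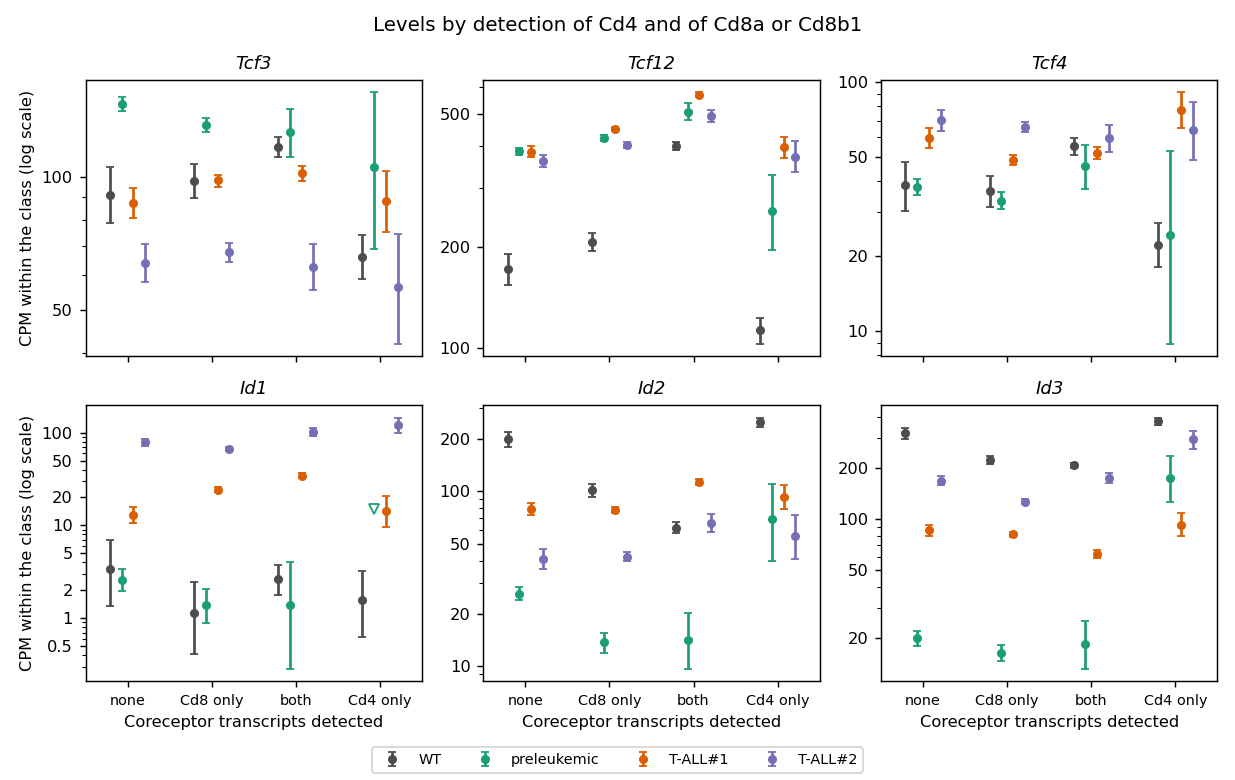
Level of each gene within cells grouped by detected coreceptor transcripts (CPM, log scale), with exact Poisson 95% intervals, and an open triangle at the upper limit where 0 UMIs were counted. In WT, Tcf12 peaks in cells with both coreceptors at 400.0 CPM where Id2 is lowest at 61.9 CPM, and preleukemic Id2 and Id3 lie below WT in all 4 classes.

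**Figure D3:**
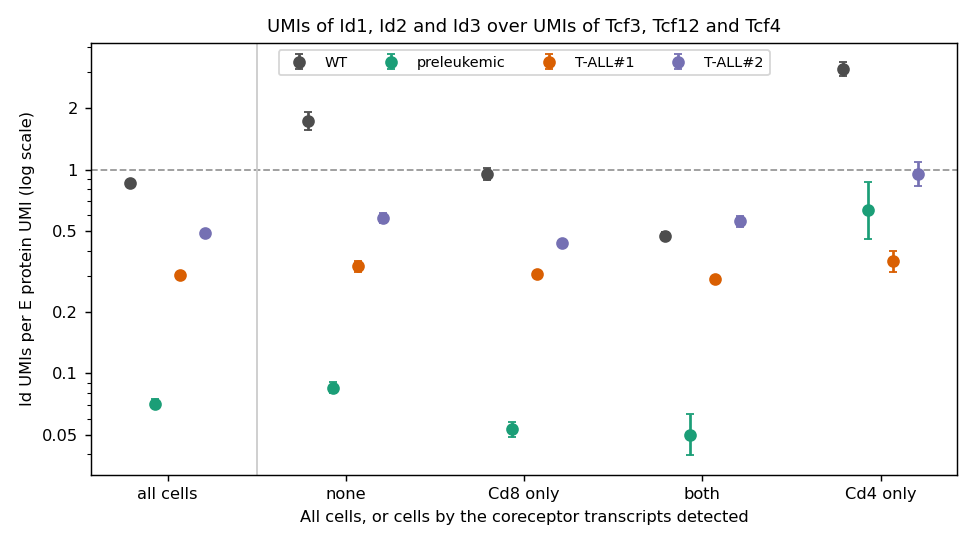
UMIs of the 3 Id genes per UMI of the 3 E protein genes (log scale) over all cells and by coreceptor class, with 95% counting intervals. WT runs from 0.474 in cells with both coreceptors to 3.11 in Cd4 only cells, and the preleukemic library lies lowest in every class but Cd4 only.

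A difference between cells with both coreceptors and cells with none that is common to the 4 animals was tested on UMIs summed per library and class (edgeR quasi-likelihood test, library as a block, Benjamini-Hochberg adjustment over 10628 genes). No member passed, against 0.894% of genes (0.452% higher and 0.442% lower in cells with both). Of the 6 members, 1 had an unadjusted p under 0.05 in edgeR and DESeq2 called 1, Tcf12 in both cases. DESeq2 called 362 of 10628 genes. Tcf12 was higher in cells with both in 4 of 4 libraries, with a log2 difference of 0.60 ± 0.154 (SE) and an edgeR adjusted p of 0.150 (0.00779 to 1.000 over 12 alternatives). The log2 ratio was 1.22 for WT, 0.39 for preleukemic cells, 0.57 for T-ALL#1 and 0.45 for T-ALL#2.

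Id2 had no common direction. Its log2 ratio of cells with both over cells with none was -1.68 in WT (-1.85 to -1.50) and -0.87 in the preleukemic library (-1.44 to -0.34), but 0.51 in T-ALL#1 (0.39 to 0.64) and 0.69 in T-ALL#2 (0.44 to 0.94). The counting intervals of the leukemias thus lie on the other side of 0 from those of the younger thymi, and the difference itself was not tested. Thinned cells kept these signs, at -2.38, -0.93, 1.16 and 1.74, although the preleukemic interval then spanned 0 (-3.99 to 0.94). The thinned classes are not the same cells, since lost coreceptor UMIs move cells between classes. Cells with none went from 447 to 1795 in T-ALL#1 and from 300 to 1216 in T-ALL#2, where cells with both went from 320 to 60. The thinned ratios are thus not a repeat of the same contrast. Median depth also differed between the classes, by 2946 against 4740 UMIs in WT and 5462 against 15892 in T-ALL#1, and its part in the unthinned ratios was not tested. The T-ALL#2 classes rest on Cd4 and Cd8a, whose levels in empty barcodes are given above, and the part of free RNA in its ratio was not tested.

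Of the E protein dependent genes listed for thymocytes, which include the recombinase genes Rag1 and Rag2, 3 of 14 tested were higher in cells with both and 0 lower, with a median log2 difference of 0.34 against -0.00 over all genes. Among them were Rag2 (log2 difference 2.76, edgeR adjusted p = 0.0114) and Rag1 (2.48, 0.00764). Among 2 tested Smad targets, Smad7, an inhibitor of transforming growth factor signals, fell by 2.16 on the log2 scale (adjusted p = 0.0369). No gene of the T-cell receptor, helix-loop-helix or S and mitosis lists passed.

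Cd69, a surface protein of thymocytes that have received a receptor signal, was used to ask whether the members differ in such cells. Id3 had the largest difference of the 6. In WT it was at 393 CPM in cells with a Cd69 UMI and 197 in those without, and in the preleukemic library at 45.5 and 11.7 CPM. T-ALL#1 cells held 107 and 72.3 CPM and T-ALL#2 cells 166 and 136 CPM. The level was higher with Cd69 in 4 of 4 libraries, by log2 ratios of 1.00, 1.96, 0.56 and 0.28 from WT to T-ALL#2.

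Across the libraries 0 of 6 members passed, against 2.84% of 11533 genes (1.97% higher and 0.876% lower with Cd69). An unadjusted p under 0.05 was reached by 2 members in edgeR (Id3 and Tcf12) and 3 in DESeq2, which called 0. The edgeR log2 difference of Id3 was 0.89 ± 0.292 with an adjusted p of 0.233 (1.72e-04 to 1.000 over 13 alternatives). Among cells with both coreceptors alone it was 0.64 and passed (edgeR adjusted p = 1.72e-04), where 109 of 9263 genes did. In those cells Id3 was at 291 against 185 CPM in WT. It was at 24.3 (12.5 to 42.4, from 12 UMIs) against 16.6 (11.1 to 24.1) in the preleukemic library, where the intervals overlap. T-ALL#1 held 97.4 against 59.5 CPM there and T-ALL#2 232 against 161. In thinned cells with both, Id3 was higher with Cd69 in WT (234 against 195 CPM) and T-ALL#2 (875 against 277, from 4 cells with Cd69). It was lower with Cd69 in the preleukemic library (0 against 25.6 CPM, from 6 cells) and T-ALL#1 (18.5 against 37.0, from 1 UMI). Id2 was also higher with Cd69 in WT, at 182 against 91.7 CPM (log2 ratio 0.99), against ratios of 0.33, -0.16 and 0.25 in the preleukemic library, T-ALL#1 and T-ALL#2, and these differences between libraries were not tested. Tcf12 was lower with Cd69 in 4 of 4 libraries, by -0.58 in WT and -0.04 in T-ALL#2 at the extremes (edgeR log2 difference -0.23 ± 0.0780, adjusted p = 0.155, and 0.0492 to 1.000 over 13 alternatives). Cells with a Cd69 UMI were deeper in each library, at medians of 5136 against 3278 UMIs in WT. In thinned cells Tcf12 was higher with Cd69 in T-ALL#2 (0.36, interval 0.05 to 0.66) and lower in WT (-0.33) and the preleukemic library (-0.24). The thinned Id3 ratios were 1.03 and 2.06 in those 2 libraries, and 0.21 (-0.50 to 0.83) and 0.05 (-0.56 to 0.59) in T-ALL#1 and T-ALL#2, where the intervals span 0.

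Among genes induced by the T-cell receptor, 2 of 7 tested were higher with Cd69, the transcription factors Egr2 (log2 difference 3.02, edgeR adjusted p = 0.0168) and Egr3 (2.70, 0.0131), with a list median of 1.75 against -0.01 over all genes. Of the 16 E protein dependent genes, 6 were lower and 0 higher, with a median of -0.42, where 0.876% of all genes were lower. Rag2 fell by 1.23, Rag1 by 1.11 and Cd8a by 0.67 on the log2 scale (edgeR adjusted p from 0.00206 to 0.0236). Of 8 S and mitosis genes, 3 were lower, Ccnb2, Birc5 and Cdk1, by -0.42, -0.36 and -0.34.

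Tal1 detection split the cells of the transgenic libraries, TAL1 being a dimer partner of E proteins. In the preleukemic library, cells with a Tal1 UMI held Id2 at 17.3 CPM against 42.8 in cells without, and Id3 was lower too (log2 ratio -1.45, from 43.9 CPM in cells without). In T-ALL#1 Id2 was at 73.6 against 106 CPM and Id3 at 77.2 against 74.1. In T-ALL#2 Id2 was at 44.2 against 62.4 CPM and Id3 at 138 against 229.7. In all UMIs Id2 was thus lower with Tal1 in 3 of 3 libraries and Id3 in 2 of 3. In thinned cells the Id3 ratio was -1.54 for preleukemic cells (-2.09 to -1.02), -0.29 for T-ALL#1 (-0.66 to 0.05) and -0.02 for T-ALL#2 (-0.25 to 0.22), so Id3 was then lower beyond counting error in the preleukemic library alone. In T-ALL#2 the split rests on a gene whose level in empty barcodes exceeds that in cells, and the part of free RNA was not tested.

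No member passed the edgeR test, against 0.0802% of 12465 genes (0.00802% higher and 0.0722% lower with Tal1). An unadjusted p under 0.05 was reached by 2 members in edgeR (Id1 and Id2), and DESeq2 called Id2, among 59 of 12465 genes. The log2 difference of Id2 was -0.72 ± 0.146 (edgeR adjusted p = 0.267, and 2.75e-08 to 1.000 over 13 alternatives), and that of Id1 was -0.47 ± 0.128 (adjusted p = 0.310, and 0.00397 to 1.000 over 13). The calls turned on single libraries. Without T-ALL#1, edgeR called Id1 (-0.68, adjusted p = 0.00397), Id2 (-0.86, 0.00511) and Id3 (-0.99, 0.00284), among 966 of 12291 genes. Without the preleukemic library it called Id2 (-0.52, 0.0403), among 36 of 12362 genes. Cells with a Tal1 UMI were also deeper, with medians of 5285 against 3598 UMIs in the preleukemic library and 12340 against 6532 in T-ALL#1. In thinned cells the Id2 ratio was -0.51 for preleukemic cells (-0.91 to -0.11), 0.07 for T-ALL#1 and 0.40 for T-ALL#2. The CPM of Id2 was then lower with Tal1 in the preleukemic library alone, a difference between libraries that was not tested. The thinned shares of preleukemic cells with Id2 overlapped, at 2.28% with Tal1 (1.77 to 2.89) and 2.58% without (1.97 to 3.31). Thinning also moved cells to the class without Tal1, which went from 3475 to 4919 cells in T-ALL#1 and from 181 to 1203 in T-ALL#2. The part of this in the thinned Id2 and Id3 ratios was not tested. Tcf12 was higher with Tal1 in thinned cells of the 3 libraries, by 0.37, 0.28 and 0.40. It passed in that setting, where 889 of 9870 genes did. In all UMIs its edgeR log2 difference was 0.21 ± 0.115 (adjusted p = 0.616, and 3.50e-04 to 1.000 over 13 alternatives). None of the 5 gene lists had a gene past the threshold here.

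Cycling cells, taken as those with at least 2 UMIs of Mki67 and Top2a together, were set against all others. Id2 was at 52.3 CPM in cycling and 156 in other cells of WT, and at 13.6 and 23.8 CPM in the preleukemic library. In T-ALL#1 it was at 67.2 and 132 CPM and in T-ALL#2 at 32.8 and 65.1 CPM. In all UMIs it was lower in cycling cells of 4 of 4 libraries, with an edgeR log2 difference of -0.94 ± 0.143 (adjusted p = 0.00281). Id2 was the 1 member called of 6, in a contrast where 51.5% of 11751 genes were called (23.6% higher and 27.9% lower), so the count of members is below the background. Thinned ratios were -1.80 in WT, -0.98 in T-ALL#1 and -1.22 in T-ALL#2, but -0.09 in the preleukemic library (-0.98 to 0.69), against -0.81 there in all UMIs. Among Cd8 only cells, where the coreceptor class is fixed, Id2 was also called (-0.70, edgeR adjusted p = 0.00873), among 4719 of 10934 genes. Without the replicate block the call was lost (-1.03, adjusted p = 0.320, the highest of 13 alternatives, of which 12 kept the call down to 3.68e-07).

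Id3 and Id1 differed between the animals in this contrast. The log2 ratio of Id3 in cycling over other cells was 0.63 in T-ALL#1 (0.54 to 0.72), but -0.63 in WT and -0.69 in T-ALL#2, and -0.10 in the preleukemic library (-0.32 to 0.12). In thinned cells the preleukemic ratio was 1.36 (0.65 to 2.01), from 23 Id3 UMIs in cycling cells, while those of WT, T-ALL#1 and T-ALL#2 kept their signs at -0.51, 0.74 and -1.02. Id1 was higher in cycling cells of T-ALL#1, at 30.1 against 19.9 CPM, and not of T-ALL#2, at 72.2 against 77.1 CPM, but the thinned T-ALL#1 ratio spanned 0 (0.25, interval -0.16 to 0.65). Tcf12 was lower in cycling cells of 4 of 4 libraries, by -0.28, -0.29, -0.60 and -0.37 from WT to T-ALL#2, without passing (edgeR log2 difference -0.23 ± 0.128, adjusted p = 0.170, and 0.0289 to 0.617 over 13 alternatives). Cycling cells were deeper, at medians of 13868 against 3341 UMIs in WT.

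Of 8 helix-loop-helix partners and Tal1 complex genes tested, 6 were lower in cycling cells and 0 higher, with a median of -0.50 against -0.08 over all genes, of which 27.9% were lower and 23.6% higher. Lmo2 fell by 1.91, Lyl1, a relative of Tal1, by 0.91, Tal1 by 0.64 and the adaptor Ldb1 by 0.63 on the log2 scale (edgeR adjusted p from 0.00659 to 0.0219). Both tested Smad targets were lower, Smad7 by -2.10 and Skil by -1.04, and so were 4 of 8 receptor-induced genes, led by Egr3 (-2.23) and Cd69 (-1.49). Of the 16 E protein dependent genes, 2 were higher, Cdkn1a (1.47) and Cxcr4 (0.39), and 3 lower, Cd4 (-1.33), Cd3e (-0.68) and Bcl11b (-0.68), and both counts are below the shares over all genes. All 6 remaining S and mitosis genes were higher, led by Cdk1 (5.06) and Birc5 (4.74).

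**Figure D4:**
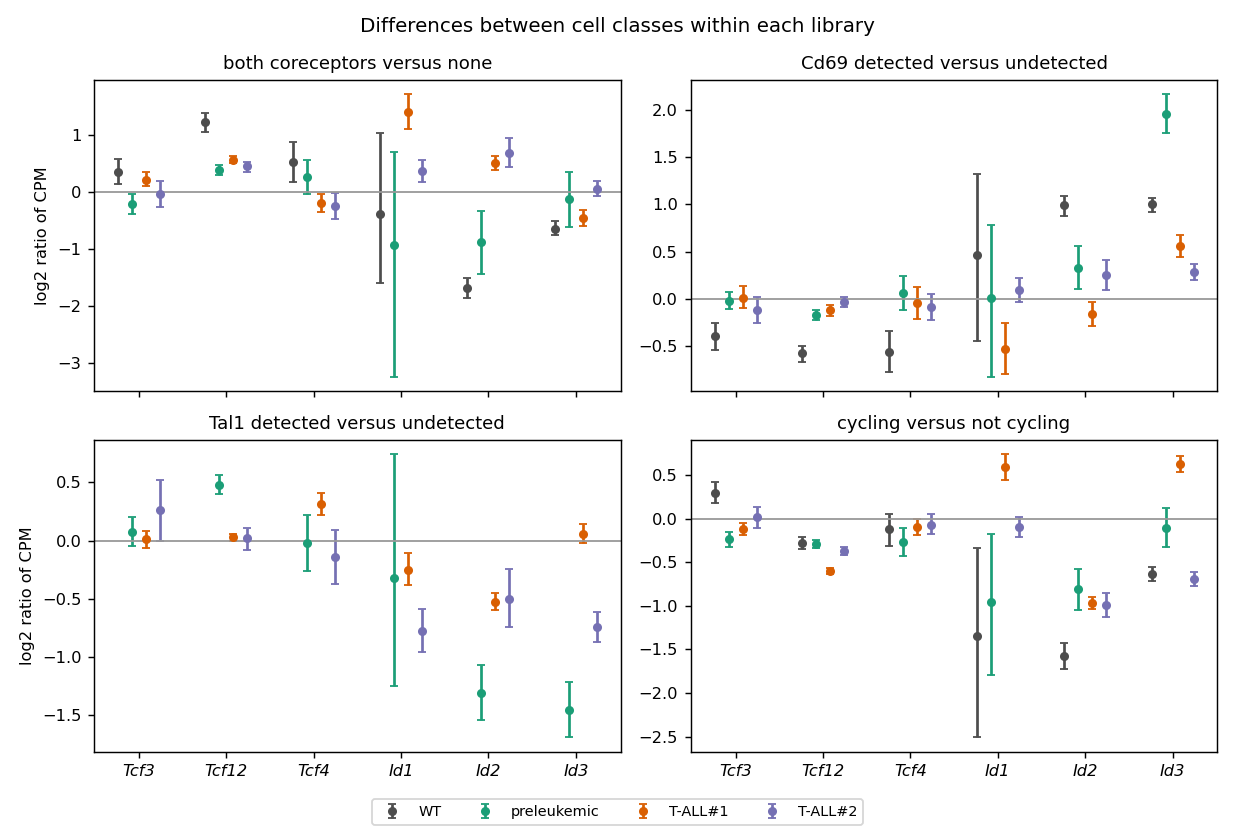
Log2 ratio of CPM between 2 classes of cells within each library for the 6 genes, over all UMIs, with 95% counting intervals, in 4 contrasts. Id2 lies below 0 in cycling cells of all 4 libraries, Id3 lies above 0 in Cd69-detected cells of all 4, and Id2 in cells with both coreceptors lies below 0 in WT and the preleukemic library and above 0 in both leukemias.

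The stage at which the study places leukemia-initiating cells, DN3, was approximated by a gate of 0 UMIs of Cd4, Cd8a and Cd44 and at least 1 of Il2ra. It held 48 WT, 432 preleukemic, 382 T-ALL#1 and 496 T-ALL#2 cells. Cd8b1, which counts for the coreceptor classes, was not part of the gate. T-ALL#2 had 300 cells with none of Cd4, Cd8a and Cd8b1, fewer than it had gated cells. A part of its gate thus held Cd8b1 UMIs, and the values of the gate are not those of cells without coreceptor transcripts alone. Id UMIs per E protein UMI in the gate were 0.255 for WT (0.199 to 0.327), 0.0340 for preleukemic cells (0.0279 to 0.0413), 0.283 for T-ALL#1 (0.265 to 0.303) and 0.578 for T-ALL#2 (0.553 to 0.604). WT and T-ALL#1 thus overlapped in this gate. Id3 in the gate was at 79.3 CPM in WT and 2.58 CPM in the preleukemic library, while Tcf12 was at 227 and 399 CPM. Tcf4 in WT was higher in gated cells that were not cycling, at 144 CPM, than in those that were, at 23.9 CPM, from 37 and 11 cells, a difference not seen in the preleukemic gate (36.1 and 37.3 CPM).

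What remained of Id2 and Id3 in the preleukemic library was held by few cells. The 56 cells (1% of all) with most UMIs of each gene held 61.0% of Id2 and 62.4% of Id3 UMIs, against 24.8% and 16.5% in the top 1% of WT cells. A group of 75 preleukemic cells with at least 3 UMIs of Id2 had 68.5% of its UMIs, and 79 cells had 71.4% of the Id3 UMIs. The cells were then described by the genes outside the members with the largest ratio to all other cells, a view taken after the values were seen and without a test.

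The Id2-rich preleukemic cells were led by S100a4 (561 against 2.34 CPM), the lectin gene Lgals3 (270.0 against 1.60), and the chemokine receptor genes Ccr2 (254 against 2.99) and Cxcr6 (311 against 7.43). Il7r, the receptor for interleukin 7, was at 567 against 24.2 CPM. The NKT and innate marker list summed to 548 CPM in them against 413 elsewhere, the 8 thymocyte markers to 3551 against 5565 CPM, and 72.0% had no coreceptor transcript against 59.5% of other cells. In WT, 315 cells with at least 3 Id2 UMIs were also marked by Lgals3, S100a4, S100a6 and Cxcr6, together with Zbtb16 (31.6 against 0.752 CPM), the defining factor of innate-like T cells, and with the antigen presentation gene Cd74 (288 against 21.8 CPM). In the 57 WT and 52 preleukemic cells of the narrow lineage list Id2 stood at 72.9 and 96.8 CPM. Tcf12 was lower in the Id2-rich cells of both libraries, at 132 against 305 CPM in WT and 178 against 412 CPM before leukemia.

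The Id3-rich preleukemic cells had other leading genes. They were led by Nab2, a partner of Egr factors (78.3 against 5.79 CPM), Cd5 (158 against 20.9), Pdcd1 (111 against 14.3) and Tnfrsf9 (27.9 against 0.654), and 53.2% had a Cd69 UMI against 20.6% of other cells. They were deeper than the rest, with a median of 11484 against 4842 UMIs, and the part of depth in their selection was not tested. In T-ALL#1, 588 cells with at least 3 Id3 UMIs were led by Egr1 (51.8 against 17.1 CPM) and Nab2 (34.9 against 14.5), while no receptor-induced gene was among the 8 leading genes of the 536 such cells of T-ALL#2.

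Id1-rich cells differed between the leukemias. In T-ALL#2, 261 cells with at least 3 Id1 UMIs (13.2% of cells) held 81.2% of Id1 UMIs. In them Id3 was at 393 against 96.7 CPM and Id2 at 77.3 against 39.4 CPM, so the 3 Id genes were high in the same cells, while Tcf3, Tcf12 and Tcf4 stood at 63.4, 388 and 67.2 CPM against 66.6, 410.0 and 65.8. In T-ALL#1, 190 such cells held 44.8% of Id1 UMIs, with Id3 at 73.7 against 75.6 CPM and Id2 at 56.6 against 92.8 CPM. These T-ALL#1 cells were led by the mitosis genes Prc1 and Ube2c, 80.5% of them were cycling against 34.6% of other cells, and their median depth was 20062 against 8326 UMIs. In T-ALL#2 the shares cycling were 55.9% and 43.3%. The difference between the 2 animals was not tested.

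**Figure D5:**
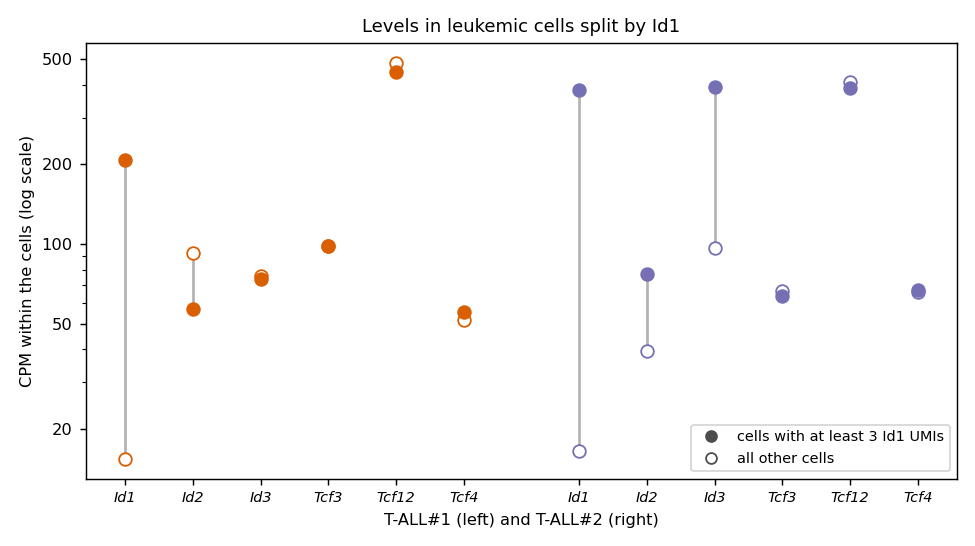
Level of the 6 genes (CPM, log scale) in leukemic cells with at least 3 Id1 UMIs (filled points, 190 cells of T-ALL#1 and 261 of T-ALL#2) and in all other cells of the library (open points), the split being made on Id1 itself. Id3 is higher in the Id1-rich cells of T-ALL#2 at 393 against 96.7 CPM and not in those of T-ALL#1 at 73.7 against 75.6 CPM, and the E protein genes differ little.

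Of 15 genes that depend on E proteins in thymocytes and passed the minimum, 8 were called lower and 0 higher in preleukemic cells when set against WT, beside 4.88% and 4.46% of all genes, with a median log2 ratio of -1.75 against -0.03 over all genes. Among those called were Cd4 (9.52 against 342 CPM), Rag2 (12.5 against 63.3) and the Notch target Hes1 (2.35 against 11.9). Cells with both coreceptors were 2325 of 4220 in WT and 219 of 5576 before leukemia. Cd4 defines that class, and Rag2 was higher in it than in cells with none (log2 difference 2.76). The part of the class mix in these calls was not tested. The 7 not called include Notch1 (144 against 77.4 CPM), Gfi1 (64.9 against 39.3), Bcl11b (979.9 against 738), Tcf7 (891 against 869) and Dntt (801 against 797). Of 7 receptor-induced genes 6 were lower, with a median of -2.39, led by Egr2 (1.64 against 18.3 CPM), Cd5 (24.6 against 218), Itm2a (49.5 against 320.4) and Egr1 (17.1 against 89.6). Of 7 helix-loop-helix and Tal1 complex genes 4 were higher, namely Tal1 itself, Lyl1 (20.8 against 0.666 CPM), the corepressor Cbfa2t3 (164 against 38.5) and Runx1 (303 against 151).

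In the leukemias the lists split. Against the preleukemic library, 5 of 15 E protein dependent genes were higher and 1 lower in T-ALL#1 (median 0.10 against -0.15 over all genes), and 2 of 14 were higher and 6 lower in T-ALL#2 (-0.85 against -0.48). Over all genes 4.68% were higher and 11.8% lower in T-ALL#1, and 3.96% and 27.1% in T-ALL#2. Hes1 was 72.6-fold and 48.4-fold higher and Ptcra, the pre-T-cell receptor chain, 20.3-fold and 2.15-fold higher, while Rag2 was 2.44-fold and 6.03-fold lower. Of 6 receptor-induced genes, 1 was higher and 1 lower in T-ALL#1, and 1 was higher and 2 lower in T-ALL#2. Of that list, Cd69 was 4.76-fold and 2.47-fold lower. Lyl1 was 23.7-fold and 62.8-fold lower and Cbfa2t3 2.88-fold and 5.28-fold lower. Of 2 Smad targets that passed the minimum, 1 was lower and 0 higher in each leukemia. The list medians were -1.31 against -0.15 over all genes and -1.97 against -0.48. Smad7 was 5.87-fold and 8.44-fold lower, at 6.23 and 4.33 CPM against 36.6, and the other gene was not called. A link of these genes to the Id1 level was not tested.

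The genes most like each member were found over 16 sums, 4 libraries by 4 coreceptor classes, by Pearson's r of log2(CPM + 1) among 4520 genes. The sums share libraries and depth, so r is a description. For Tcf3 they were Ldlrad4 (0.965), Cnot8 (0.965) and Ube2e3 (0.964), for Tcf12 Ly6e, Cby1 and Asrgl1 (0.937 each), and for Tcf4 Utp3 (0.927), Pole3 (0.925) and Psmd12 (0.896). For Id1 they were Foxb1 (0.969), Mid1 (0.961) and Adm (0.960), for Id2 Rgs10 (0.911), Galnt6 (0.911) and Hivep3 (0.905), and for Id3 Ier5 (0.951), Ass1 (0.937) and Cd2ap (0.875). Between members, r was 0.77 for Id2 with Id3 and 0.78 for Id1 with Tcf4, and -0.62 and -0.60 for Tcf12 with Id2 and Id3.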

How the data were processed

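The authors deposited counts, the UMIs of each gene in each barcode, made with Cell Ranger on mm10 (per the file headers, version 3.0.2 for WT, the preleukemic library and T-ALL#1, and version 4 for T-ALL#2, whose matrix holds every barcode). Different versions of the chemistry are named in the labels, not by library, so library, chemistry and software cannot be told apart. Cells with more than 500 genes and a mitochondrial share under 10% were kept, and T-ALL#2 barcodes needed at least 3416 UMIs, which is 1/10 of the 99th percentile of the 10000 deepest. Doublets were not called. Members and gene lists were chosen with earlier results of these data known. Apart from the members, genes named from a list were the up to 4 with the largest difference past the threshold (1 listed gene, which is counted, and 1 promoter window are not reported here), and genes described in Id-rich cells were chosen after their values were seen.

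UMIs were summed per library and class. CPM carries exact Poisson intervals, ratios between libraries or classes exact binomial ones, and Id UMIs per E protein UMI a normal interval on the log scale, all of which cover counting error only. Within-library classes were tested with edgeR 4.0.16 in R 4.3.3 (quasi-likelihood, robust, TMM, filterByExpr, library block, Benjamini-Hochberg, threshold 0.05). Both sums of a library come from 1 animal, and their deviations correlated in every library (r from 0.648 to 0.972), so they are paired. DESeq2 1.42.0, RLE factors, other filters, thinned cells, left-out libraries and cell subsets were alternatives. The edgeR steps were tested on simulated counts with known changes. Libraries of 1 animal were not tested against each other.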

Additional observations from a re-analysis of the deposited data

Results flagged for a closer look

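Id2 in cells with both coreceptors against cells with none went opposite ways between groups, with log2 ratios of -1.68 in WT and -0.87 in the preleukemic library against 0.51 in T-ALL#1 and 0.69 in T-ALL#2, each counting interval being clear of 0. Tcf4 did so against WT alone, at 0.52 in WT against -0.19 in T-ALL#1 and -0.24 in T-ALL#2, but in thinned cells these were 1.15, -0.01 and 0.08, so the leukemic direction was not kept. Neither difference between groups was tested, since WT and the preleukemic condition are 1 library each.

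The barcodes of T-ALL#2 with at most 100 UMIs, which enter no comparison, held all 6 genes. Tcf3 was at 52.9 CPM, Tcf12 at 262, Tcf4 at 48.5, Id1 at 74.4, Id2 at 44.1 and Id3 at 168 CPM.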

How the results depend on the processing

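Over the alternatives, 86 values that answer a comparison kept their direction and side of the threshold, 28 moved beyond counting error, 11 came past the threshold or rose over 1.5-fold and 19 lost it or fell over 1.5-fold. Of single-gene values 278 kept both, 50 moved beyond counting error, 17 came past the threshold, and 27, none past the threshold as reported, turned direction. The numbers of genes called were the least stable. For both coreceptors against none (95 genes), DESeq2 called 362, a minimum of 1 UMI 481, thinned cells 427, the fit with no replicate block 2, and the narrow lineage list left 60, while leaving out a library gave 24 (without the preleukemic library), 25 (WT), 46 (T-ALL#1) and 207 (T-ALL#2). For Cd69 (328) these were 782 with 1 UMI, 0 with no replicate block, 90 without cells of the planned other-lineage list, 109 in cells with both coreceptors, and 23 (without the preleukemic library), 155 (T-ALL#1) and up to 475 (T-ALL#2). For Tal1 (10) they were 59 with DESeq2, 538 with 1 UMI, 889 thinned, 0 with no replicate block, 1 without the narrow list, 44 in cells without coreceptors, 6 in cells not cycling, and 3 (without T-ALL#2), 36 (preleukemic) and 966 (T-ALL#1). For cycling (6050) they were 1316 with no replicate block, 3524 thinned, 3502 without the other-lineage list, and 3989 (without the preleukemic library) to 6058 (without T-ALL#2). Id2 in cycling cells was -1.03 (adjusted p = 0.320) with no replicate block, and the block changed no other call of a member. With no block 0 members passed any test, where edgeR gave 0 of 6 an unadjusted p under 0.05. The causes were not tested.

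Of the log2 differences that turned, Tcf4 in cells with both coreceptors went to -0.05 with no replicate block and to -0.07 under the upper limit on genes, and leaving out a library gave -0.10 to 0.15. In the same contrast, leaving out a library gave Tcf3 -0.04 to 0.10, Id1 -0.04 to 0.64 and Id2 -0.70 to 0.16. With Cd69, Tcf3 was 0.00 in thinned cells and Id1 0.19 without the other-lineage list, 0.32 in cells with both coreceptors and -0.27 (without T-ALL#2) to 0.12 (without T-ALL#1). With Tal1, Tcf4 was -0.13 in cells without coreceptors and -0.04 (without T-ALL#1) to 0.20 (without T-ALL#2). In cycling cells Tcf4 was -0.03 thinned, -0.03 under the upper limit and -0.57 without the other-lineage list (adjusted p = 0.0264). Id1 was 0.08 with no replicate block, 0.07 under the upper limit, 0.88 without the other-lineage list (0.0335), 0.19 in Cd8 only cells and -0.45 (without T-ALL#1) to 0.19 (without WT), with 0.14 without the preleukemic library. Id3 was 0.11 thinned, 0.04 under the upper limit, 0.21 without the other-lineage list and -0.32 (without T-ALL#1) to 0.19 (without T-ALL#2), with 0.11 without WT.

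Between libraries, the log2 ratios of called members that moved by more than counting error kept their direction. For members not called, direction was not tracked, and a turn counts above as moved. Tcf12 in T-ALL#2 against preleukemic, a ratio of 0.997, stood at 0.50 on the log2 scale with TMM factors. Preleukemic against WT, Id2 was -2.67 below a mitochondrial share of 5%, -2.89 without the other-lineage list and -2.38 with equal weight of cells, and Id3 was -3.83 under the upper limit and -4.31 with equal weight. T-ALL#1 against preleukemic, Id1, Id2 and Id3 were 3.16, 2.33 and 2.10 below 5%, 5.0, 3.21 and 0.69 without the other-lineage list, where Id3 lost its call, and 3.36, 2.77 and 2.13 with equal weight, while TMM factors put Id2 at 2.43 and Id3 at 2.24. T-ALL#2 against preleukemic, Id1 was 4.89 below 5%, and Tcf3, Id2 and Id3 were -0.81, 2.53 and 2.64 without the other-lineage list. Tcf3, Id1, Id2 and Id3 were -0.56, 5.72, 1.67 and 3.41 with TMM factors and -1.16, 4.86, 1.52 and 3.59 with equal weight.

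The planned other-lineage list marked 4844 of 5576 preleukemic, 3874 of 5773 T-ALL#1 and 1848 of 1975 T-ALL#2 cells, but 1165 of 4220 WT cells. Values without it rest on 127 cells of T-ALL#2, of which 13 were cycling. The narrow list and the Cd8 only setting were thus chosen after the data were seen. Depth limits Id1 in WT (52 UMIs) and the preleukemic library (81 UMIs). The Cd4 only classes of the preleukemic library and T-ALL#2 rest on 28 and 47 cells, and the DN3 gate of WT on 48. Intervals cover counting error within 1 animal, not the spread between animals.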
